A study of Ictidomys tridecemlineatus with 15 samples.

Results

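Horizontal cells are inhibitory interneurons of the outer retina. Their processes meet the terminals of rods and cones, where they feed signals back to the photoreceptors and forward to bipolar cells. They are among the earliest neurons to leave the progenitor pool, and the transcription factors Onecut1, Onecut2, Lhx1 and Prox1 and the calcium-binding protein Calb1 are known to mark them. The 13-lined ground squirrel (13LGS) is a diurnal rodent whose retina is rich in cones, one of the cell types that horizontal cells contact.

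The members were all cells that the deposited annotation calls HC (horizontal cell) at postnatal days 1, 4, 8, 12, 17 and 21 (P1 to P21), 1022 of the 53394 cells of the time course (1.91%) and 3.03% of the 33764 postnatal cells. Whole retinas were taken from captive-bred litters with no treatment and no engineered allele, and profiled as 10x Chromium 3′ v3.1 single-cell libraries, in which each captured mRNA carries a unique molecular identifier (UMI). A library was a time point plus the suffix of its cell names, which gave 9 postnatal libraries: P1a, P1b, P4, P8a, P8b, P12a, P12b, P17 and P21. In the same way the untreated embryonic retinas gave 7 libraries, E18, E21a, E21b, E24a, E24b, E26a and E26b (embryonic days 18 to 26, from timed pregnancies), which are used here for comparison. The labels give P1 1 sample while the cell names show 2 suffixes, and both were used. The labels do not say how many animals stand behind a library, so p-values below measure the spread between libraries, part of which may be technical.

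P1a held 201 horizontal cells, P1b 248, P4 124, P8a 64, P8b 19, P12a 97, P12b 76 and P17 192, while P21 held 1. Their median depth ran from 1601 UMIs per cell (P4) to 4571.5 UMIs per cell (P12b), below or within the 3511 to 6986 UMIs of the embryonic horizontal cells. Summed over a library, horizontal cells gave 39032 UMIs in P8b, where 1 UMI is worth 25.6 CPM (counts per 1000000 UMIs), and 763366 UMIs in P17, where 1 UMI is worth 1.31 CPM. P8b therefore said little about any single gene. The cell barcode of 16 of the 1022 cells was also found in another library.

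The names of the genes could not be attached to the counts. The matrix has 34181 rows, the list of names has 30265 entries, and the files do not pair them, so genes are given by their row in the matrix, counted from 1, and the markers above could not be read. The label could therefore not be checked against its markers. What could be checked was whether annotations and matrix columns are in register. Mean profiles of the annotated types were built from part of the cells, and each of the remaining cells was given the type of its closest profile: 465 of 486 held-out horizontal cells (95.7%) fell nearest the horizontal cell profile, against 60 of 2000 held-out cells of the other types (3%). The annotation was made from these same counts, so this does not bear on whether the label is right.

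The first question was how large a part of the retina horizontal cells made up after birth. They were 21% and 21.8% of cells in the E26 libraries, the last before birth, and 6.3% (95% Wilson interval 5.51% to 7.2%) and 6.65% (5.89% to 7.49%) in P1a and P1b. The share was 3.17% (2.67% to 3.77%) in P4, 2.12% (1.67% to 2.7%) in P8a and 1.39% (0.89% to 2.16%) in P8b. It was 2.27% (1.87% to 2.77%) in P12a, 1.92% (1.54% to 2.4%) in P12b and 3.64% (3.17% to 4.18%) in P17. The intervals cover counting error only, and the P17 interval lies above those of P8a, P8b, P12a and P12b.

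Across the 9 postnatal libraries the share was lower at later days by Pearson's r (−0.745, exact two-sided permutation p = 0.0212, adjusted over 2 relations 0.0425), whereas the rank correlation missed the threshold (Spearman's rho −0.633, exact permutation p = 0.0746, adjusted 0.149). Leaving out P21 and P17, the libraries farthest from the median day, gave r −0.863 (exact permutation p = 0.0127) and rho −0.753 (exact permutation p = 0.0635) over 7 libraries. Without P17 alone rho was −0.837 (adjusted exact permutation p = 0.0286), and among cells that are neither progenitors nor photoreceptor precursors it was −0.819 (adjusted exact permutation p = 0.0197). It was −0.482 without P1a and without P1b (adjusted exact permutation p = 0.464 each), −0.473 without P21 (0.24) and −0.6 over time point means (0.483), so the rank relation depended on which libraries were used. Other types were added to the retina over the same days, and fewer horizontal cells and more cells of other types cannot be told apart from shares.

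**Figure D1:**
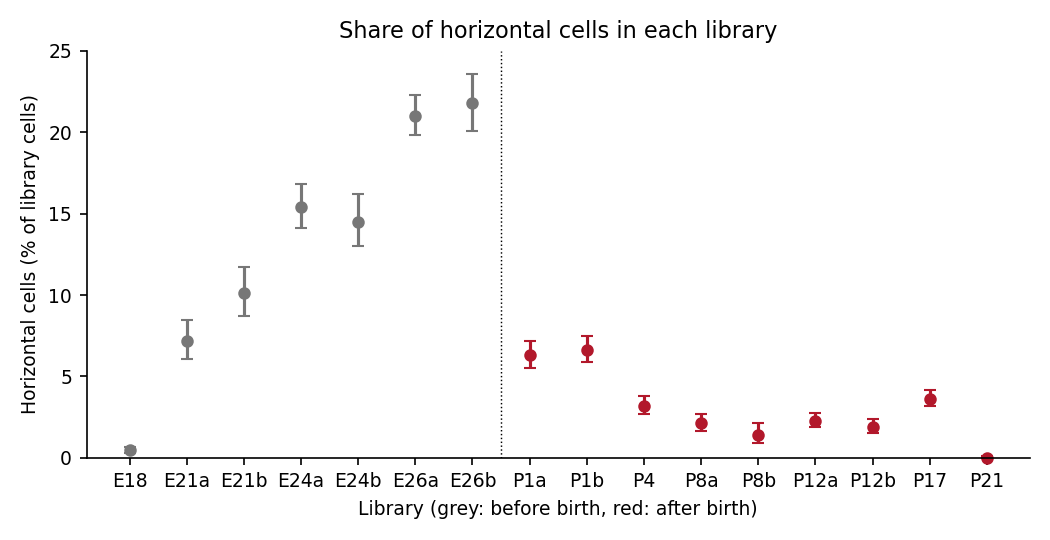
Horizontal cells as a percentage of all cells of each library, with 95% Wilson intervals as bars, for the 7 embryonic libraries (grey) and the 9 postnatal libraries (red), in order of age. The share is highest in the E26 libraries (21% and 21.8%), 6.3% and 6.65% at P1, and between 1.39% and 3.64% from P4 to P17, with 1 cell at P21.

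Ratios to other neurons put those shares in context. Amacrine cells, the inhibitory interneurons of the inner retina, numbered 4.2 per horizontal cell in P1a and 5.01 in P1b, 10.2 in P4, 22.3 in P8a and 16.6 in P8b, 18.8 in both P12 libraries and 9.75 in P17. Against retinal ganglion cells, the output neurons, which also form early, no trend was seen. Of horizontal and ganglion cells together, horizontal cells made up 27.1% in P1a, 21.7% in P1b, 36.2% in P4, 35.6% in P8a, 9.36% in P8b, 37.3% in P12a, 25.9% in P12b and 41.3% in P17 (rho with day 0.0506, exact permutation p = 0.903, adjusted 0.903, P21 included). P8b was the lowest of the 8 libraries and P17 the highest.

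P21 stood apart. Its 5057 cells included 1 horizontal cell (0.0198%, 95% Wilson interval 0.00349% to 0.112%) beside 211 ganglion cells and 1600 amacrine cells, and that cell held 1045 UMIs. A search of the other P21 cells for a horizontal cell profile, by the 20 gene rows described next, used as its limit the level that 95% of the P12 and P17 horizontal cells exceed, 52.8 UMIs per 10000. It found 4 of 5056 cells (0.0791%, 0.0308% to 0.203%), 3 of them annotated as amacrine. The same search found 1 such cell in P12a, 1 in P12b and 3 in P17, beside the 97, 76 and 192 annotated there. Of those annotated cells, 83, 72 and 191 reached the limit. The 1 annotated horizontal cell of P21 did not, so the search would have missed cells like it. Why P21 held a single horizontal cell was not tested. P21 enters none of the tests of expression, but its cells are part of every class level pooled after birth. The other classes thus include P21 cells there, while horizontal cells have almost none.

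The second question was which genes keep horizontal cells distinct once they mature. The rows were chosen before birth: 20 rows at 50 CPM or more in E24 and E26 horizontal cells with the highest ratio to the next class there (3.32 to 86 times). After birth, 16 of the 20 were still higher in pooled horizontal cells than in any other class, and 10 were at least 5 times the highest other class. The annotation was made on all of these cells together, so these levels are a description and carry no test.

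Row 2526 was the most abundant of them. It stood at 986 CPM in P1a, 1300 in P1b, 968 in P4, 1110 in P8a, 1670 in P8b, 1690 in P12a, 2120 in P12b and 1570 in P17. The highest other class after birth, ganglion cells, had 30.8 CPM. In P17 a UMI of this row was found in 98.4% of horizontal cells, 33.7% of ganglion cells and 8.17% of amacrine cells. The median depths of these classes were 3863, 11044 and 2981.5 UMIs.

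Row 32888, the row most confined to horizontal cells before birth (86 times the next class), was at 294 CPM in P1a, 369 in P1b, 348 in P4, 384 in P8a, 487 in P8b, 401 in P12a, 522 in P12b and 447 in P17. Its highest other class, bipolar cells, had 18.3 CPM. Every postnatal library was above every embryonic one, where it ran from 42.1 CPM (E18) to 177 CPM (E26b).

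Row 22290 varied more between libraries. It was at 0 CPM at E18, 99 and 129 CPM in the E26 libraries, 573 and 1070 CPM in P1a and P1b, 1140 in P4, 586 in P8a, 1260 in P8b, 757 in P12a, 1430 in P12b and 2510 in P17. P17 was highest, and the early and late libraries overlapped. Row 23434 was steadier, with 508 to 948 CPM over the 8 postnatal libraries and 22.6 CPM in its highest other class.

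Of the 20 rows, 4 were all but gone after birth. Rows 33052, 274, 10245 and 32094 fell from 63.1 to 146 CPM in E24 and E26 horizontal cells to 2.87 to 6.37 CPM after birth. Row 10245, at 131 and 111 CPM in the E26 libraries and up to 916 CPM at E21, was at 0 CPM in P1a, P8a, P8b, P12a and P17, and at 8.54 CPM in P1b, 4.77 in P4 and 5.77 in P12b. Early neurogenic progenitors, cells about to become neurons, were its highest postnatal class at 103 CPM. A further row, 14816, stayed high in horizontal cells (280 CPM) but was nearly matched by amacrine cells (260 CPM).

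**Figure D2:**
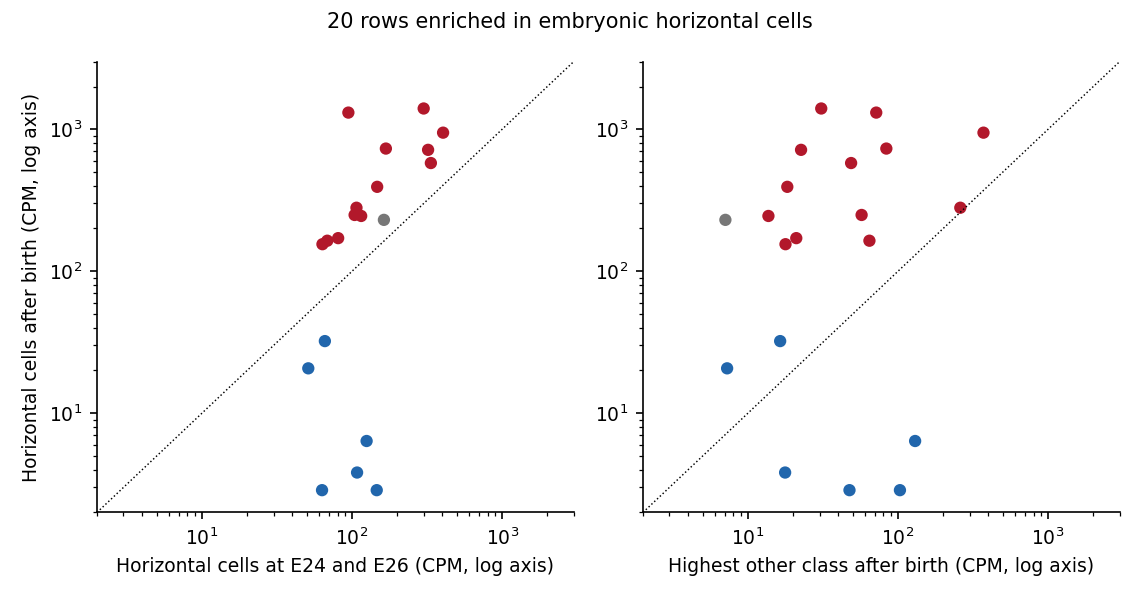
Level after birth in pooled horizontal cells (CPM, log axes) of the 20 rows chosen before birth, against their level in E24 and E26 horizontal cells (left) and against the highest other class after birth (right). Points above the dotted line of equality are higher on the vertical axis. Red rows were called higher and blue rows lower after birth, and the grey row was not called. 16 rows lie above the line at right, and 4 blue rows lie between 2.87 and 6.37 CPM.

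Cell by cell, the 20 rows together made up a median of 62.3 UMIs per 10000 in P1a horizontal cells, 71.1 in P1b, 62.6 in P4, 64.3 in P8a, 83.5 in P8b, 70.7 in P12a, 91.3 in P12b and 94.8 in P17. The corresponding level that 99% of amacrine cells stayed at or under was 24.7 (P1b) to 32.7 (P12a) in these 8 libraries. At or under that level in their own library lay 30 of the 1021 horizontal cells, 17 of them in P1b (6.85% of its 248). Their median depth in P1b was 2852 UMIs, against 2667 UMIs in the other P1b horizontal cells. The single P21 cell, at 38.3, lay under its library's amacrine level of 42.2. Horizontal cells thus formed a range of one score with few cells near the amacrine level, and no subtypes were defined.

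**Figure D3:**
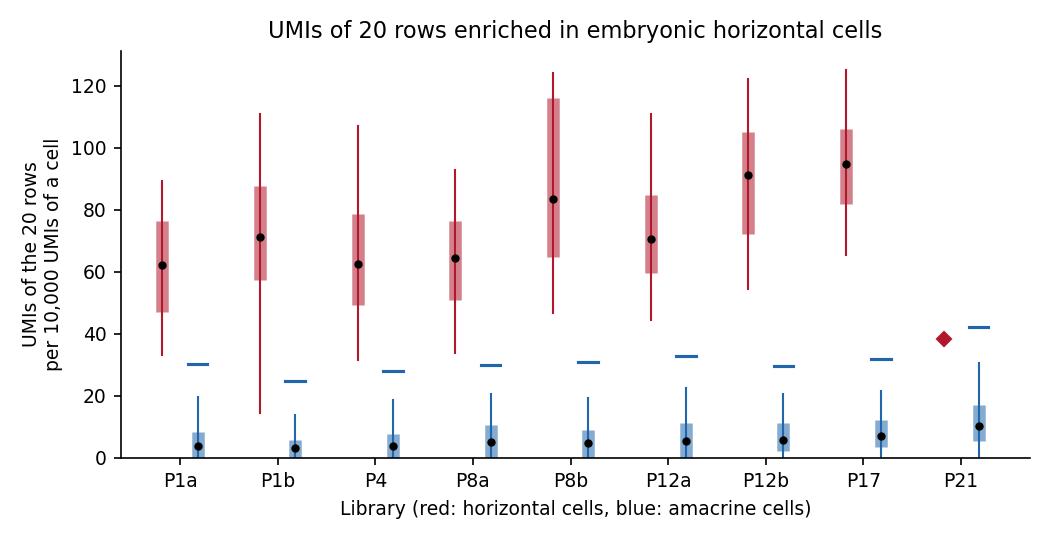
UMIs of the 20 rows per 10000 UMIs of a cell, in horizontal cells (red) and amacrine cells (blue) of each postnatal library. Dots are medians, boxes the middle 50% of cells, thin lines the 5th to 95th percentiles, short blue bars the 99th percentile of amacrine cells, and the red diamond the 1 horizontal cell of P21. Horizontal cell medians run from 62.3 to 94.8 in the 8 other libraries, and the lower line of P1b reaches below its amacrine 99th percentile.

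The third question was what changed as the cells matured. UMIs were summed over the horizontal cells of each library, and the late libraries (P12a, P12b, P17) were compared with the early ones (P1a, P1b, P4) by edgeR's quasi-likelihood test, in a fit that also held P8a and P8b. At a Benjamini-Hochberg adjusted p below 0.05, 148 of 6125 rows were called (2.42%), 98 higher (1.6%) and 50 lower (0.816%) in the late libraries, and each of these changed at least 2-fold. An unadjusted p below 0.05 was met by 777 rows.

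The calls rested on few libraries. Without P17 37 rows were called, without P1a 52 and without P1b 91. With neither P1 library, a setting chosen after the data were seen, 33 were called, 8 of them higher.

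None of the 20 rows enriched before birth was among them. Of the 15 that could be tested, edgeR called 0 and DESeq2 0, with 2 below an unadjusted p of 0.05 by either tool. Over all 6125 rows the shares were 2.42% called and 12.7% below an unadjusted p of 0.05, so counts this low do not set the 15 rows apart. Their log2 fold changes ran from −1.07 to 0.769 with a median of 0.356, against −0.0185 over all rows tested. Leaving out P12a gave 1 call, as did dropping the filter on low counts and taking day as a continuous covariate.

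The naming rule took called rows by size, with early and late libraries that did not overlap and at least 50 CPM on the higher side. Of the 98 rises and 50 falls called, 78 and 34 qualified. Over all 6125 rows tested, 1078 had early and late libraries that did not overlap. Row 33323 rose most. It had 0 UMIs in P1a, P1b and P4, 6.51 CPM in P8a, 0 in P8b, and 33.1, 31.7 and 152 CPM in P12a, P12b and P17. Pooled, this is at least 51.2-fold higher, taking 3 UMIs over the early group as the floor (edgeR adjusted p = 7.68e-04). Of the 8 fits that left out a library, the row passed the filter on low counts in 4, and was called in those. It was not tested without P12b, P17, P1a or P1b. Amacrine cells of the same libraries were at nearly the same levels, 36.9, 32.2 and 141 CPM in P12a, P12b and P17, and bipolar cells, which pass photoreceptor signals inward, held 1160 CPM of it after birth.

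Row 1702 was also at 0 UMIs in all 3 early libraries, and stood at 6.51 CPM in P8a, 25.6 in P8b (1 UMI), 66.2 in P12a, 49.1 in P12b and 74.7 in P17. Pooled, it was at least 34.7-fold higher in the late libraries (edgeR adjusted p = 1.97e-04). Amacrine cells carried far more of it throughout, 26, 47 and 128 CPM in P1a, P1b and P4 and 638, 641 and 1420 CPM in P12a, P12b and P17. For these rows, the part that RNA from other cells has in the horizontal cell sums was not tested.

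Row 13274 fell most. It was at 38.5 CPM in P1a, 110 in P1b and 110 in P4, at 0 in both P8 libraries, and at 3.68, 2.89 and 1.31 CPM in P12a, P12b and P17 (log2 fold change −5.14, SE 0.668, edgeR adjusted p = 3.25e-04). It had been at 1.52 and 4.1 CPM in the E26 libraries, so its high level was a feature of P1 and P4. Amacrine cells followed the same course, with 92.5 CPM ± 42.4 (SD, n = 3) early and 1.91 CPM ± 1.01 (SD, n = 3) late.

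Row 25005 was at 70.9 CPM in P1a, 128 in P1b, 296 in P4, 26 in P8a, 76.9 in P8b, 14.7 in P12a, 0 in P12b and 2.62 in P17 (log2 fold change −5.10, SE 0.694, edgeR adjusted p = 3.25e-04). Early progenitors held 1580 CPM and late progenitors 1260 CPM of it after birth, against 67.3 CPM in horizontal cells. Amacrine cells had 142 CPM ± 54.2 (SD, n = 3) early and 1.97 CPM ± 0.624 (SD, n = 3) late.

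**Figure D4:**
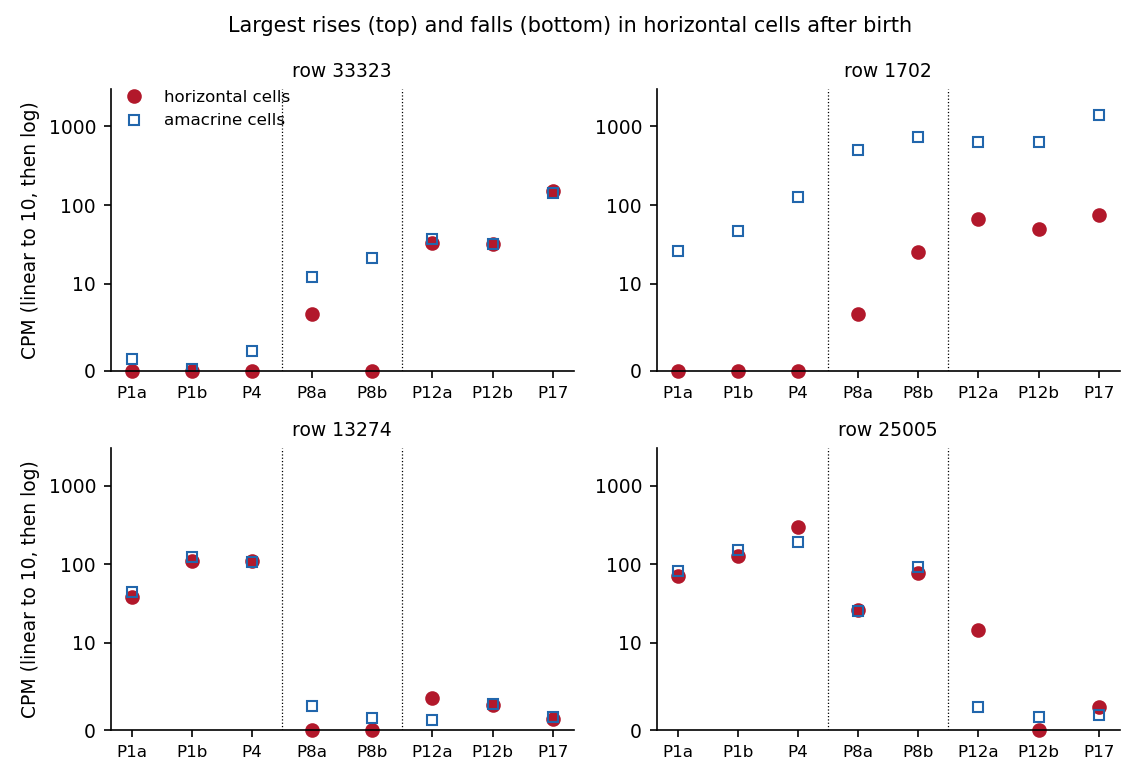
CPM in the sums of horizontal cells (red) and amacrine cells (blue) of each library for the 2 largest rises (rows 33323 and 1702) and the 2 largest falls (rows 13274 and 25005) in horizontal cells. The axis is linear up to 10 CPM and logarithmic above it, and dotted lines part early, P8 and late libraries. For row 25005 horizontal cells had 14.7 CPM and amacrine cells 2.69 CPM in P12a, for row 33323 both classes were below 3 CPM early and above 30 CPM late, and row 1702 is higher in amacrine cells in all 8 libraries.

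The 10 largest rises reached 50.5 to 244 CPM in the late libraries, and in 4 of them the late mean was at least 2 times the amacrine mean. Horizontal cells were the highest postnatal class for 4 rises, though not for the same 4. The widest gap to amacrine cells was in the tenth rise by size, singled out after its values were seen, at 124 CPM ± 52 (SD, n = 3) in late horizontal cells against 2.5 CPM ± 1.52 (SD, n = 3) in late amacrine cells. Müller glia, the supporting glia of the retina, held 64.7 CPM of it pooled after birth, against 70.1 CPM in pooled horizontal cells. Nearly all Müller glia came from P8a or later, whereas many horizontal cells came from P1 and P4, so these pools differ in age. In 3 of the rises bipolar cells were highest, in 2 amacrine cells and in 1 rods. P8a lay between the early and the late mean in all 10. The 10 largest falls began at 52 to 437 CPM. None had an early mean at least 2 times the amacrine one, and all 10 were highest after birth in progenitors, 4 in early primary, 3 in late primary, 2 in early neurogenic and 1 in late neurogenic ones. The highest class was read from cells pooled over all postnatal libraries, and the classes differ in the ages they come from.

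**Figure D5:**
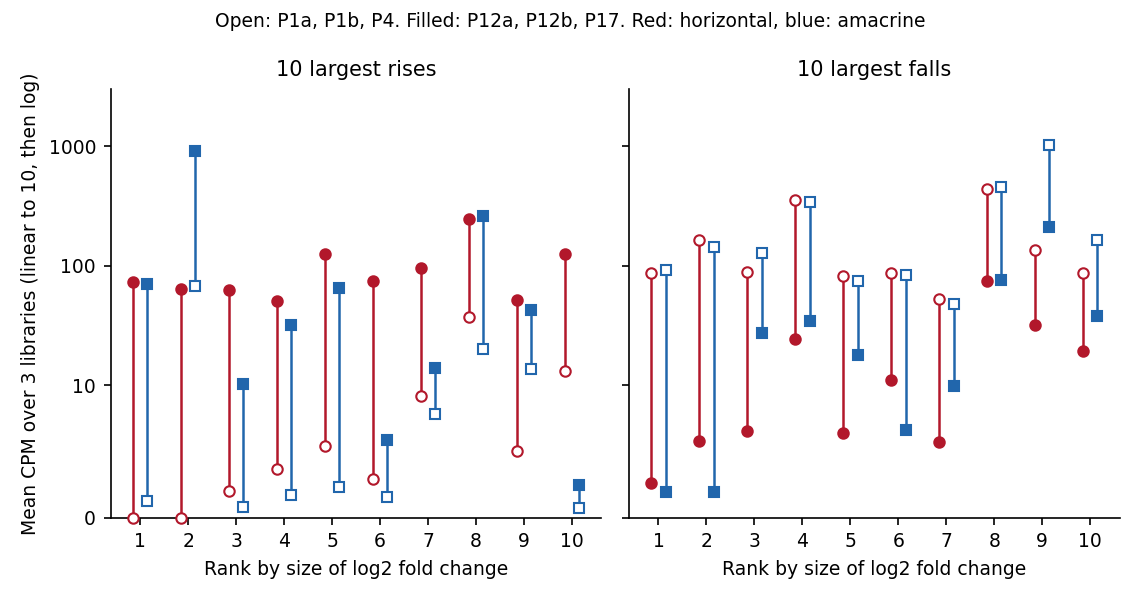
Mean CPM over the 3 early libraries (open symbols) and the 3 late libraries (filled symbols) in horizontal cells (red circles) and amacrine cells (blue squares), for the 10 largest rises and the 10 largest falls in horizontal cells, ranked by log2 fold change. The axis is linear up to 10 CPM and logarithmic above it. In each of the 10 falls the late mean lies below the early one in both classes, at much higher levels in amacrine cells for the ninth fall, and for 4 of the rises the filled red circle lies at least 2 times above the filled blue square.

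Rows typical of the other classes were summed inside the horizontal cells, 20 rows for each class. Horizontal cells were left out when each set was chosen, so a set can hold rows that are as high in horizontal cells. The bipolar rows summed to between 59.8 and 219 CPM in the early libraries and between 462 and 870 CPM in the late ones. In amacrine cells they stood between 68.2 and 197 CPM early and between 849 and 1090 CPM late. Late progenitor rows lay between 1000 and 1740 CPM early and between 462 and 750 CPM late, and in amacrine cells between 913 and 1570 CPM early and between 493 and 857 CPM late. Ganglion cell rows did not have this likeness between the classes. In horizontal cells they lay between 337 and 357 CPM early and between 1600 and 1720 CPM late, while amacrine cells of the same libraries held 105 to 120 CPM early and 119 to 205 CPM late. Ganglion cells themselves held 7090 CPM or more, and of the 20 rows 9, 13 and 2 were at 0 UMIs in the horizontal cells of P12a, P12b and P17, so that the sum rested on part of the list. Of the bipolar rows 7, 5 and 1 were at 0 UMIs in the same libraries, against 14, 11 and 16 in P1a, P1b and P4. Amacrine rows lay between 1160 and 1300 CPM early and between 1490 and 2440 CPM late in horizontal cells. Müller glia rows lay between 177 and 419 CPM early and between 526 and 745 CPM late in horizontal cells, and photoreceptor precursor rows between 1140 and 1540 CPM early and between 934 and 1110 CPM late. Of the 11 sets, these 6 did not overlap between early and late libraries in horizontal cells, 4 higher and 2 lower late. Of the 6125 single rows tested, 1078 did not overlap either, though a set is a sum of 20 rows. The sets were chosen on the postnatal cells and carry no test, and the part of these rows in the calls was not tested.

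Which of these changes differed from those of another neuron in the same libraries was tested with the interaction of class (horizontal or amacrine) and age, with the library as a block. Of 11613 rows, 762 were called (6.56%, edgeR, adjusted p below 0.05), 338 with the more positive change in horizontal cells (2.91%) and 424 with the more negative one (3.65%). Of the 148 rows that changed in horizontal cells, 56 (37.8%) were among them, which is 7.35% of the 762, and 42 of the 56 had the same sign in both tests. Both tests used the same early and late sums of horizontal cells, so the overlap and the shared sign are in part built in. DESeq2 called 289 rows. Without P1a 489 were called and without P17 495.

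In row 33090 the late mean was above the early one in horizontal cells and below it in amacrine cells. Horizontal cells had 9.24 CPM in P1a, 11.4 in P1b, 38.1 in P4, 51.5 in P12a, 26 in P12b and 77.3 in P17. Amacrine cells had 3.3, 3.39 and 4.64 CPM early and 0.895, 1.19 and 0.711 CPM late. The log2 difference of the changes was 3.80 (SE 0.646, edgeR adjusted p = 2.45e-05). The early and late horizontal cell libraries overlapped, and the change within horizontal cells was not called (log2 1.69, edgeR adjusted p = 0.109).

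Row 32882 went the other way. Horizontal cells had 10.8, 8.54 and 9.53 CPM in P1a, P1b and P4 (15 UMIs in all) and 0 UMIs in P12a, P12b and P17, at least 4.42-fold lower by the same floor. Amacrine cells held 36.1 CPM ± 8.45 (SD, n = 3) early and 51.9 CPM ± 5.03 (SD, n = 3) late, and the interaction was called (edgeR adjusted p = 6.57e-04). In row 14232 it was amacrine cells that moved. They held 0.661 CPM ± 0.635 (SD, n = 3) early and 121 CPM ± 15.4 (SD, n = 3) late, while horizontal cells had 2 UMIs early and 9 late (edgeR adjusted p = 0.0281).

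The last comparison set the postnatal horizontal cells against the 2303 horizontal cells of the 7 embryonic libraries. Of 7686 rows, 3218 were called (41.9%, edgeR, adjusted p below 0.05), 1656 higher (21.5%) and 1562 lower (20.3%) after birth. Of the rows called, 672 were at least 2-fold higher and 610 at least 2-fold lower. Between the P1 and E26 libraries alone, 4 libraries in place of 15, 414 of 10576 rows were called (3.91%). With E24 and E26 against P1 and P4, 7 libraries, 2163 of 10897 rows were called (19.8%). These fits differ both in the span of ages and in the number of libraries. Embryonic horizontal cells were mostly deeper, though the ranges of their library medians overlapped with those after birth. With all sums thinned to the smallest, 204 of the 559 rows that could be tested were called (36.5%).

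Among the 20 rows enriched before birth, 13 were called higher, by 0.695 to 3.97 on the log2 scale, and 6 lower. Row 22290 was the largest of these rises (3.97) and row 10245 the largest of the falls (−6.95). E24 and E26, which chose the rows, are part of this comparison, so the counts are a description.

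Row 1551 rose most across birth under the naming rule. It was at 0 to 1.04 CPM in the embryonic libraries and at 28.6 CPM (P4) to 101 CPM (P17) in the postnatal ones, with 75.5 and 55.5 CPM already in P1a and P1b (log2 fold change 6.57, SE 0.423, edgeR adjusted p = 1.71e-10). Every class held it when pooled after birth, from 25.4 CPM in early primary progenitors to 97 CPM in ganglion cells, against 65.7 CPM in horizontal cells. Amacrine cells had 76.1 CPM in P1a, 51.7 in P1b and 141 in P17, so the row was not particular to horizontal cells. Row 5286 had a pattern more particular in level to horizontal cells, which held 210 CPM of it after birth against 27.6 CPM in amacrine cells, its next class. It ran from 0 to 3.8 CPM before birth and stood at 236 CPM in P1a, 52.6 in P1b, 305 in P4, 234 in P8a, 231 in P8b, 448 in P12a, 133 in P12b and 252 in P17 (log2 fold change 6.49, SE 0.456, edgeR adjusted p = 6.64e-10).

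Row 17801 fell most. It held 244 CPM at E18, 293 and 882 at E21, 1090 and 345 at E24, and 14.5 and 1930 at E26, and 0 UMIs in each of the 8 postnatal libraries, at least 822-fold lower (edgeR adjusted p = 6.90e-06). The E26 libraries thus lay at the ends of its embryonic range. No class with at least 50 cells held more than 0.416 CPM of it when pooled after birth, so its absence was shared by the whole postnatal retina. The second largest fall was that of row 10245, described above (log2 fold change −6.95, SE 0.634, edgeR adjusted p = 1.87e-08).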

How the data were processed

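The authors deposited whole-number UMI counts per gene row and cell as 1 matrix, together with a table of each cell's name, time point (other columns, an embedding, were not used) and cell type. Per the study's methods they used Cell Ranger 3.1.0 on the HiC_Itri_2 assembly and Seurat 4.0.4, and named clusters from marker genes. Cell filters and any removal of doublets or subsampling of reads: not given in the sources used here. All deposited cells were kept and no doublet caller was run. The comparisons of expression were repeated without cells above 2 times the median UMI count of their library and type, 19 of the postnatal horizontal cells.

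Libraries, not cells, were the replicates, and UMI counts were added up over the horizontal cells of each library with at least 10 such cells (8 postnatal and 7 embryonic libraries). The test was edgeR's quasi-likelihood test (version 4.0.16 under R 4.3.3, with filterByExpr, TMM, glmQLFit and glmQLFTest), where the study tested single cells, and with DESeq2 1.42.0 as an alternative. P-values were adjusted by Benjamini-Hochberg over all rows tested, and SE is the standard error of a log2 fold change. A CPM value divides a row's UMIs by all UMIs of that sum, times 1000000, without the TMM factor. Named rows were the largest changes, 10 each way for late against early and 5 each way for the other comparisons, at an adjusted p below 0.05, a log2 fold change of at least 1, groups that do not overlap and at least 50 CPM in the higher group. Of these, 2 each way are printed with their numbers, because rows have no names. For the interaction, the limits on overlap and CPM were not met within horizontal cells in every named row. Row 33090 overlapped there, and row 32882 reached 50 CPM in amacrine cells only. Intervals are Wilson intervals (95%), and exact permutation tests took all 362880 orders of the 9 libraries. The fits were tested on simulated counts, with known changes placed in rows with a mean of at least 10 counts. Apart from these changes, each row had the same expected share of UMIs in every library and class. The simulation therefore does not cover differences between classes or single libraries that the real data hold. Of 100 rows changed by 1 on the log2 scale, late against early recovered 22. After against before birth recovered 79 and the interaction 26. For a change of 2 the counts were 90, 100 and 78. Of the unchanged rows, 4 of 5925, 9 of 7486 and 3 of 11413 were called. The members, lists and tests were chosen with earlier results of these data known. Python 3.11.15, numpy 2.4.6 and scipy 1.17.1 were used.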

Additional observations from a re-analysis of the deposited data

Results flagged for a closer look

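The change with age from P1 and P4 to P12 and P17 differed between horizontal and amacrine cells of the same libraries for 762 of 11613 rows, by a test of the difference itself (edgeR, adjusted p below 0.05). Among the rows printed above, it was more positive in horizontal cells for row 1702 (fitted log2 difference 6.10, adjusted p = 0.0302) and for row 33090 (3.80, adjusted p = 2.45e-05). It was more negative for row 32882 (−7.99, adjusted p = 6.57e-04) and for row 14232 (−5.61, adjusted p = 0.0281). Rows 1702 and 32882 had 0 UMIs in 1 age group of horizontal cells, so that the size of the fitted difference depends on the prior count and is not a bound. Row 1702 stayed under the threshold in 3 of the 6 fits that left out a library and row 14232 in 4 of 6, whereas rows 33090 and 32882 did so in all 6. With DESeq2 row 1702 was not called (log2 difference 3.35, adjusted p = 0.153), nor was it by edgeR without a filter on low counts (5.99, adjusted p = 0.071) or with thinned sums (3.17, adjusted p = 0.211). Row 14232 was called by DESeq2 (adjusted p = 0.00282), but not by edgeR without the filter (adjusted p = 0.0547) or with thinned sums (adjusted p = 0.522).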

How the results depend on the processing

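No paired analysis was possible because the cell names do not show which library suffix carries which replicate number of the labels. The interaction alone had a block, the library that horizontal and amacrine cells share. For the share against day, rho ran from −0.837 to −0.473 over the fits that left out a library, and was −0.819 without progenitors and precursors. For the share among horizontal and ganglion cells, rho was −0.17 to 0.509 over the libraries left out (negative without P1b, −0.0602, P12a, −0.12, and P17, −0.17) and −0.143 over time point means. Without a filter on low counts 299 of 20751 rows (1.44%) were called for late against early. For after against before birth it was 4920 of 25814 (19.1%). The shares in the main fits were 2.42% and 41.9%. With sums thinned to the smallest the counts were 14, 204 and, for the interaction, 121, with 873, 559 and 4666 rows tested. Leaving out a library gave 37 to 163, 2807 to 3344 and 489 to 807 rows, and leaving out both P1 libraries gave 33 for late against early. After against before birth gave 1040 of 2121 rows (49%) with at least 10 counts in every library of a group, and 414 of 10576 (3.91%) between E26 and P1. The interaction gave 289 of 11613 rows (2.49%) with DESeq2. It gave 471 of 9868 (4.77%) with ganglion in place of amacrine cells, where row 14232 changed sign (0.955, adjusted p = 0.725). The causes were not tested, except that thinning and filters change the number of rows tested. Of the other results for single named rows, 647 kept their direction and side of the threshold and 39 lost the call. Settings in which a row did not pass the filter on low counts are not in this tally.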

Other observations

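Among the rows enriched in horizontal cells before birth, row 16319 had the lowest level in any other class after birth (7.08 CPM, in ganglion cells). It stood at 401 CPM in P1a, 226 in P1b, 286 in P4, 254 in P8a, 256 in P8b, 210 in P12a, 147 in P12b and 111 in P17. The 3 late libraries all lay below the 3 early ones, and the change missed the threshold (log2 fold change −1.07, edgeR adjusted p = 0.0643).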
